A study of Mus musculus with 16 samples.

Results

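The mRNAs described here are those whose recovery with an anti-CPEB4 antibody was compared between untreated wild-type (WT) and CPEB4 knockout (KO) mouse macrophages, and which lay at the top or the bottom of that comparison. The members are the annotated 3′-UTR regions that carry a gene symbol and had 10 or more reads in the pair of untreated RNA-immunoprecipitation (RIP) libraries, 15182 of the 31117 regions in the table. They belong to 8086 of 14925 genes, and each gene is represented below by its region with the most reads in the pair. No measured ratio was used to choose them, but a region read in a single RIP could enter only through that library and therefore had to differ. The 409 regions with exactly 10 reads in the pair, just inside the limit, had WT over KO log2 ratios from -3.42 to 1.63 with a median of -0.83, and the 487 regions with 9 reads, just outside it, had ratios from -4.0 to 1.49 with a median of -0.42.

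The cells were bone marrow-derived macrophages (BMDMs), grown for 7 days with L-cell conditioned medium, which supplies the macrophage growth factor M-CSF. The mice carried the strain label C57BL/6J 129, and the sources used here give no age beyond adult. The labels number the WT cells 76 and the KO cells 73 and do not say what the number stands for. Per the methods of the study the KO cells came from mice that lacked Cpeb4 throughout the body (Cpeb4-/-), and the cells compared here were left untreated. Each RIP was set beside its Input, the RNA of the lysate before precipitation, from which ribosomal RNA had been depleted. Every library was run on 2 lanes that the authors summed, so each genotype has 1 RIP and 1 Input. The difference between the genotypes has no replicate check, no p-value is given, and mouse, culture, precipitation and genotype cannot be told apart.

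CPEB4 belongs to the cytoplasmic polyadenylation element-binding (CPEB) proteins. These proteins bind U-rich cytoplasmic polyadenylation elements (CPEs) in 3′-UTRs, from which they can shorten or lengthen the poly(A) tail and so silence or activate translation, depending on their phosphorylation and on the arrangement of the elements relative to the polyadenylation signal hexamer. In macrophages many transcripts of the inflammatory response carry U-rich or AU-rich elements. A RIP from cells without the antigen measures what the antibody, the beads and the crosslinked material retain in its absence.

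The WT RIP held 1665914 reads over regions with a symbol and the KO RIP 467696, and the Inputs held 929054 (WT) and 1325968 (KO). These regions took 48.9% of the library total in the WT RIP and 27.3% in the KO RIP, against 46.8% and 46.4% in the Inputs. Ratios below are log2 of WT over KO after adding 1 read and scaling each library to its reads over these regions. On library totals every RIP ratio would be higher by 0.84, so the sign of a ratio is relative to the 3′-UTR reads. Intervals are 95% normal intervals of the read counts and cover counting error only. Of 11 symbols fixed as macrophage markers (Adgre1 and its older name Emr1 among them), 10 were listed, none of these was at 0 in the Inputs, and their summed level was 4144 CPM (reads scaled to the 3′-UTR total of the library) in the WT Input and 3261 in the KO Input. The listed markers of neutrophils (2 genes), B cells (3), T cells (5), dendritic cells (4), erythroid cells (3), fibroblasts (3) and mast cells (1) had summed levels from 0 to 3.23 in the WT Input and from 0 to 9.05 in the KO Input. Of these, S100a8 and Ngp (neutrophils), Cd79b and Ms4a1 (B cells), Cd3d and Cd3e (T cells), Hba-a1 (erythroid cells), Kit (mast cells) and the 3 listed fibroblast genes were at 0 in both Inputs.

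The sequences at the ends of some of these mRNAs are shown first, because CPEs are the elements that CPEB proteins bind. CPEs were read as TTTTAT or TTTTAAT on the mRNA strand, in DNA letters, and the polyadenylation hexamer as AATAAA or ATTAAA. The motifs can overlap, as TTTTAAT shares letters with a hexamer that follows it. Among the 30 top genes, 10 had a CPE that started within 100 bases before a hexamer, among the 30 bottom genes 5 had it, and of all 8086 genes 35.2% had it. The share of the top genes, 33.3%, was thus close to that of all genes. The windows below are 30 bases long, from GRCm38.p6, with CPEs and hexamers in capitals. The first group belongs to top genes that have this arrangement and begins 2 bases before the CPE, and the second group belongs to bottom genes and ends with the last hexamer of the region.
Csnk1e, chr15:79418005-79418034, minus strand: ttTTTTAATTAAAgagcaaaactTTTTATt
Cpeb4, chr11:31935416-31935445, plus strand: ttTTTTATTAAAgtcattttcacgttaagt
Dusp1, chr17:26505600-26505629, minus strand: ttTTTTATacaacagAATAAAttatgacgt
Tpra1, chr6:88912207-88912236, plus strand: ttTTTTAATAAAAATAAAaagagtagtagg
Csgalnact2, chr6:118107517-118107546, minus strand: gcTTTTATttgaagatggaagctaagcaat
Ostc, chr3:130696183-130696212, minus strand: ttTTTTATttcttaaagaaaatatactcct
C1qb, chr4:136880145-136880174, minus strand: tagatgttacagaacgaatgggtcAATAAA
Ifitm3, chr7:141009608-141009637, minus strand: catttatctatccacagtggattcAATAAA
Pkm, chr9:59679327-59679356, plus strand: tgctatagtgcccacctgaatgtcAATAAA
Rpsa, chr9:120132315-120132344, plus strand: tgatggtattgaagattgtaagacATTAAA
Rpa1, chr11:75298182-75298211, minus strand: tatttccagtgTTTTATgccttccATTAAA
In Dusp1 the CPE started 13 bases before the hexamer, in Ostc 46 and in Csgalnact2 64, while in Cpeb4, Csnk1e and Tpra1 it overlapped it. Rpa1, a bottom gene, has the same arrangement as the top genes, so the element did not separate the groups gene by gene. That the windows of C1qb, Ifitm3, Pkm and Rpsa show no CPE says only that these letters are absent from these 30 bases.

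The RIP ratio had a median over all genes of -0.096, with 5% of genes under -1.51 and 5% over 1.33. In the WT direction, 774 genes lay over 2-fold, which is 9.57% of the 8086 genes measured. In the KO direction, 1156 genes lay over 2-fold, or 14.3%. This split turned with the scaling, as library totals put 3115 genes over 2-fold toward the WT and 144 toward the KO, and TMM scaling put 1248 and 758. It turned with the minimum of reads too. Of the 4560 genes with 50 or more reads in the pair, 467 lay over 2-fold toward the WT and 332 toward the KO. Counting intervals lay wholly above 0 for 1114 genes and wholly below 0 for 1571. In the Inputs the same regions spread less. Of 7649 genes with over 3 reads in an Input, 2.69% had an Input ratio over 1 and 5.33% under -1, with a median of -0.037. Among 3691 genes with several measured regions, 27 had regions past 2-fold in both directions. The scatter of the RIPs shows the cloud and where the named genes lie.

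**Figure D1:**
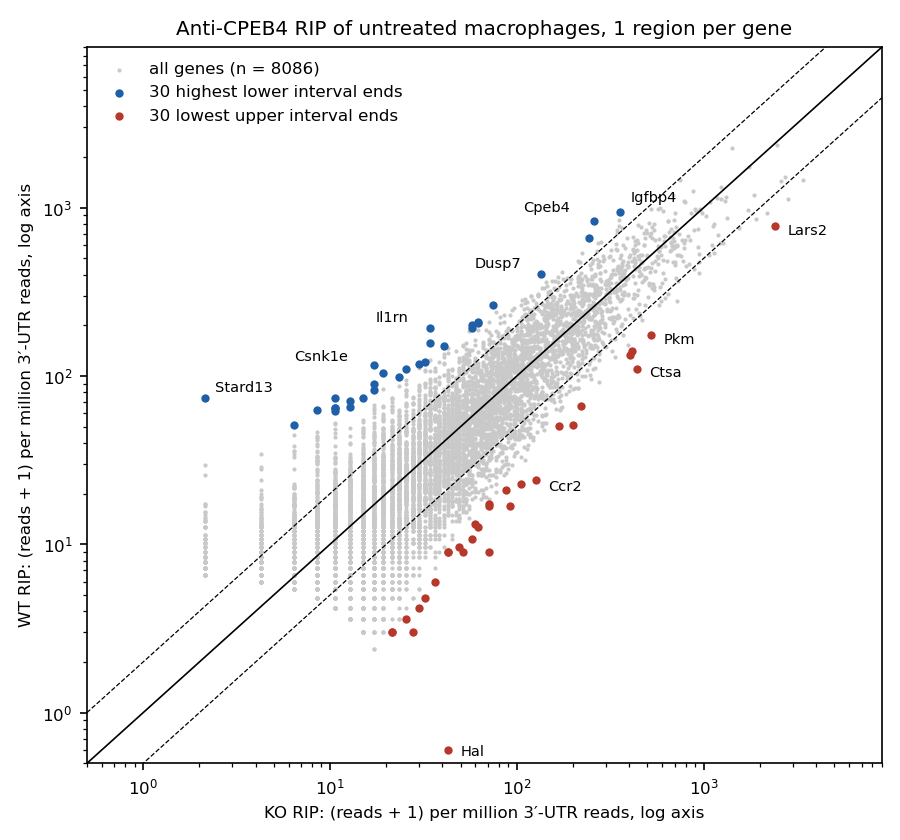
CPM over 3′-UTRs in the KO RIP (x axis) and the WT RIP (y axis), each with 1 read added and on log axes, for 8086 genes (grey points), with the 30 top genes in blue, the 30 bottom genes in red, the line of equal values (solid) and the 2-fold lines (dashed). The top genes lie mostly at low values of the KO RIP, and Cpeb4, Igfbp4 and B4galt1 are the top genes with the most reads, while Lars2 is the bottom gene with the most.

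Cpeb4 itself was read first, as the targeted gene. Its region (mm10 chromosome 11, 31931533 to 31935634, + strand, 4102 bases, a 3′-UTR with 17 CPE motifs) had 1392 reads in the WT RIP and 120 in the KO RIP, and 121 and 69 in the Inputs. The RIP ratio was 1.69 (1.42 to 1.96) and the Input ratio 1.31 (0.89 to 1.74). The difference between them was 0.38 (-0.12 to 0.88), so that beyond the lower Input a difference was not detectable at this depth. Cpeb4 was the only top gene besides Stard13 with an Input ratio over 1, and reads of this 3′-UTR remained in both libraries labelled KO.

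The top mRNAs are described by the roles of their proteins, assigned after the genes were known. The 30 genes with the highest lower ends of the interval had ratios from 1.40 to 5.11, with a median of 2.24, and a median of 188 reads in the WT RIP against 10.5 in the KO RIP. The next gene outside, Vezf1, had a ratio of 1.73 (1.16 to 2.31). Secreted factors made up 6 of the 30, endoplasmic reticulum (ER) and Golgi proteins 6, signalling enzymes and their subunits 5, nuclear proteins 5 and membrane proteins 3. The Input ratios of the 30 had a median of 0.082, and in 28 of them the RIP ratio less the Input ratio had an interval above 0, the exceptions being Cpeb4 and Stard13.

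Among the secreted factors, Il1rn encodes the interleukin-1 receptor antagonist, which blocks signalling by interleukin-1. It had 319 reads in the WT RIP and 15 in the KO RIP, with 109 and 110 in the Inputs, and a ratio of 2.49 (1.76 to 3.21). The other members of this group were CC chemokines, which attract monocytes and lymphocytes, and Igfbp4, a binding protein of insulin-like growth factors. Ccl3 had 123 reads in the WT RIP and 4 in the KO RIP, with a ratio of 2.80 (1.51 to 4.09). Ccl2 had 107 and 4, with a ratio of 2.60 (1.31 to 3.89), but only 3 and 4 reads in the Inputs. Ccl7 had 183 and 11, and Ccl4 had 194 and 13, with ratios of 2.11 and 1.97. The RIP therefore held far more reads of these chemokines in the WT than in the KO, while their Input ratios lay between 0.10 and 0.59. Igfbp4 had 1564 and 166 RIP reads, the most of any top gene, and its ratio of 1.40 (1.17 to 1.63) stood beside an Input ratio of 0.44 (0.29 to 0.59).

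The group of ER and Golgi proteins held subunits of the machinery that translocates and glycosylates secretory proteins. Ssr2, a subunit of the translocon-associated protein complex, had 118 reads in the WT RIP and 5 in the KO RIP. Ostc, a subunit of the oligosaccharyltransferase, had 319 and 26. B4galt1, a Golgi galactosyltransferase, had 1104 and 113, and Csgalnact2, an enzyme of chondroitin sulfate synthesis, had 341 and 28. Golga7, an accessory subunit of a palmitoyltransferase, had 436 and 34, and Ier3ip1, an ER protein, had 262 and 15. The ratios of these 6 genes ran from 1.44 to 2.48, and their Input ratios from -0.45 to 0.15. In B4galt1, where counting error was smallest, the RIP ratio less the Input ratio was 1.47 (1.14 to 1.79).

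Among the signalling enzymes, Csnk1e, the epsilon isoform of casein kinase 1 that acts in circadian timing and Wnt signalling, had 193 reads in the WT RIP and 7 in the KO RIP. Its ratio was 2.77 (1.75 to 3.79), and its Inputs, with 59 and 89 reads, had a ratio of -0.07. Dusp1 and Dusp7 encode phosphatases that switch off mitogen-activated protein (MAP) kinases. Dusp1 had 149 and 7 RIP reads (ratio 2.40, 1.37 to 3.42) and an Input ratio of -0.78, and Dusp7 had 673 and 62 (ratio 1.59, 1.21 to 1.96). The GTPase gene Rala had 250 and 18 RIP reads, and Cnep1r1, which encodes a subunit of a nuclear envelope phosphatase, had 122 and 6. The Input ratios of these 5 genes ran from -0.78 to 0.59.

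Nuclear proteins included the histone deacetylase Hdac1, with 84 reads in the WT RIP and 2 in the KO RIP, and the linker histone Hist1h1c, with 333 and 26. Raver1, which encodes a splicing co-regulator, had 164 and 10, the zinc finger gene Tshz1 had 136 and 7, and Pnrc1, a nuclear receptor coactivator, had 202 and 14. For Hdac1 the ratio of 2.99 (1.33 to 4.65) rests on few KO reads. Hist1h1c had an Input ratio of 0.79, which left 1.01 (0.36 to 1.65) after subtraction. The membrane proteins were Cldnd1, the tetraspanin Cd82 and Tpra1, each with 8 or fewer reads in the KO RIP. Other top genes were Stard13, Tma7 and Bbc3, which encodes the pro-apoptotic BH3-only protein PUMA.

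Stard13, a GTPase-activating protein with a lipid-binding START domain (chromosome 5, 151037628 to 151039654, - strand), stood at the top of the order but differed in the Inputs too. It had 122 reads in the WT RIP and none in the KO RIP, which is at least 11.4-fold higher in the WT RIP when the KO count is set to the floor of 3 reads per library. Its Inputs had 32 and 4 reads, an Input ratio of 3.24 (1.88 to 4.59), and the RIP ratio less the Input ratio had an interval from -1.27 to 5.02. After LPS its RIPs had 17 and 0 reads.

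The 30 bottom genes, with the lowest upper ends of the interval, had ratios from -6.15 to -1.55 and a median of -2.27. Their median read count was 20.5 in the WT RIP and 30 in the KO RIP, although the KO library was smaller. The next gene outside, Ifitm2, had a ratio of -2.71 (-4.14 to -1.27). By role, 6 were immune genes, 5 encoded proteins of translation, 5 metabolic and lysosomal enzymes, 4 proteins of cell division and the cytoskeleton, and 4 nucleic acid and RNA factors. In 27 of the 30 the ratio less the Input ratio had an interval below 0. The exceptions were Hal, Ccr2 and Megf11, the only bottom genes with Input ratios under -1.

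Of the immune genes, C1qb, a chain of the complement initiator C1q that macrophages secrete, had 37 reads in the WT RIP and 48 in the KO RIP, with 133 and 182 in the Inputs. Its ratio was -2.20 (-2.81 to -1.59), and its Input ratio was 0.06. Ifitm3 and Igtp are interferon-stimulated genes that act against viruses and intracellular pathogens. Ifitm3 had 34 and 40 RIP reads and a ratio of -2.06 (-2.71 to -1.41), and Igtp had 5 and 11 and a ratio of -2.83 (-4.25 to -1.42). Apobec3, an antiviral cytidine deaminase, had 109 and 102 RIP reads, and Cd5l, a secreted macrophage protein, had 21 and 27. The chemokine receptor gene Ccr2 had 39 and 58 RIP reads and a ratio of -2.39 (-2.97 to -1.81), but its Inputs, with 14 and 67 reads, had a ratio of -1.67 (-2.47 to -0.86). The difference for Ccr2 was -0.73 (-1.72 to 0.27), which is within counting error of 0.

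Among the proteins of translation, Lars2 encodes the mitochondrial leucyl-tRNA synthetase (chromosome 9, 123461679 to 123462664, + strand). It had 1291 reads in the WT RIP and 1131 in the KO RIP, with 1053 and 1027 in the Inputs. Its ratio was -1.64 (-1.76 to -1.53), while its Input ratio was 0.55 (0.43 to 0.67). Lars2 was thus the bottom gene with the most reads, and its Inputs differed in the opposite direction. Eef1a1, the elongation factor that brings aminoacyl-tRNA to the ribosome, had 235 and 193 RIP reads and a ratio of -1.55 (-1.82 to -1.28). Rpsa and Fau, which encode proteins of the small ribosomal subunit, had 83 and 78 and 28 and 32 RIP reads. The initiation factor gene Eif2d had 4 and 12. Eef1a1, Rpsa and other ribosomal protein genes have processed pseudogenes, so their reads are uncertain.

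Of the metabolic and lysosomal enzymes, Ctsa, the lysosomal protective protein cathepsin A (chromosome 2, 164839235 to 164841032, + strand), had 182 reads in the WT RIP and 204 in the KO RIP. With 543 and 936 Input reads, its ratio of -2.0 (-2.28 to -1.71) stood beside an Input ratio of -0.27 (-0.42 to -0.12). Its region overlaps an exon of Pltp on the opposite strand, and such reads cannot be told apart without strand. Pkm, the pyruvate kinase of glycolysis, had 289 and 244 RIP reads, a ratio of -1.59 (-1.83 to -1.34) and an Input ratio of 0.21. Hal, the histidine ammonia-lyase gene, had no reads in the WT RIP and 19 in the KO RIP, and none and 39 in the Inputs. With the WT count set to the floor of 3 reads, Hal was at least 22.6-fold lower in the WT RIP, and the difference was present in the Inputs as well. The other genes of this group were Dgkq, a diacylglycerol kinase, and Renbp, an epimerase of amino sugars.

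Cenpf and Nusap1, which act at kinetochores and on spindle microtubules, had 14 and 32 and 84 and 93 RIP reads in the WT and the KO. Diaph3, a formin, had 4 and 9, and Nes, the intermediate filament gene nestin, had 27 and 42. Their ratios ran from -2.97 to -1.98, and their Input ratios from -0.59 to 0.19. The nucleic acid and RNA factors were Rpa1, a subunit of the single-stranded DNA-binding replication protein A, with 221 and 188 RIP reads, Smg5, a factor of nonsense-mediated decay, with 17 and 26, Rsrc2 and Zkscan3. Other genes of the bottom set were Ubb, Glp2r, Megf11, Ttc38, Gm20696 and 9330151L19Rik, with 9 to 23 reads in the KO RIP. Exons of other genes overlapped the region on the same strand in 1 top and 2 bottom genes and on the opposite strand in 0 top and 4 bottom genes.

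**Figure D2:**
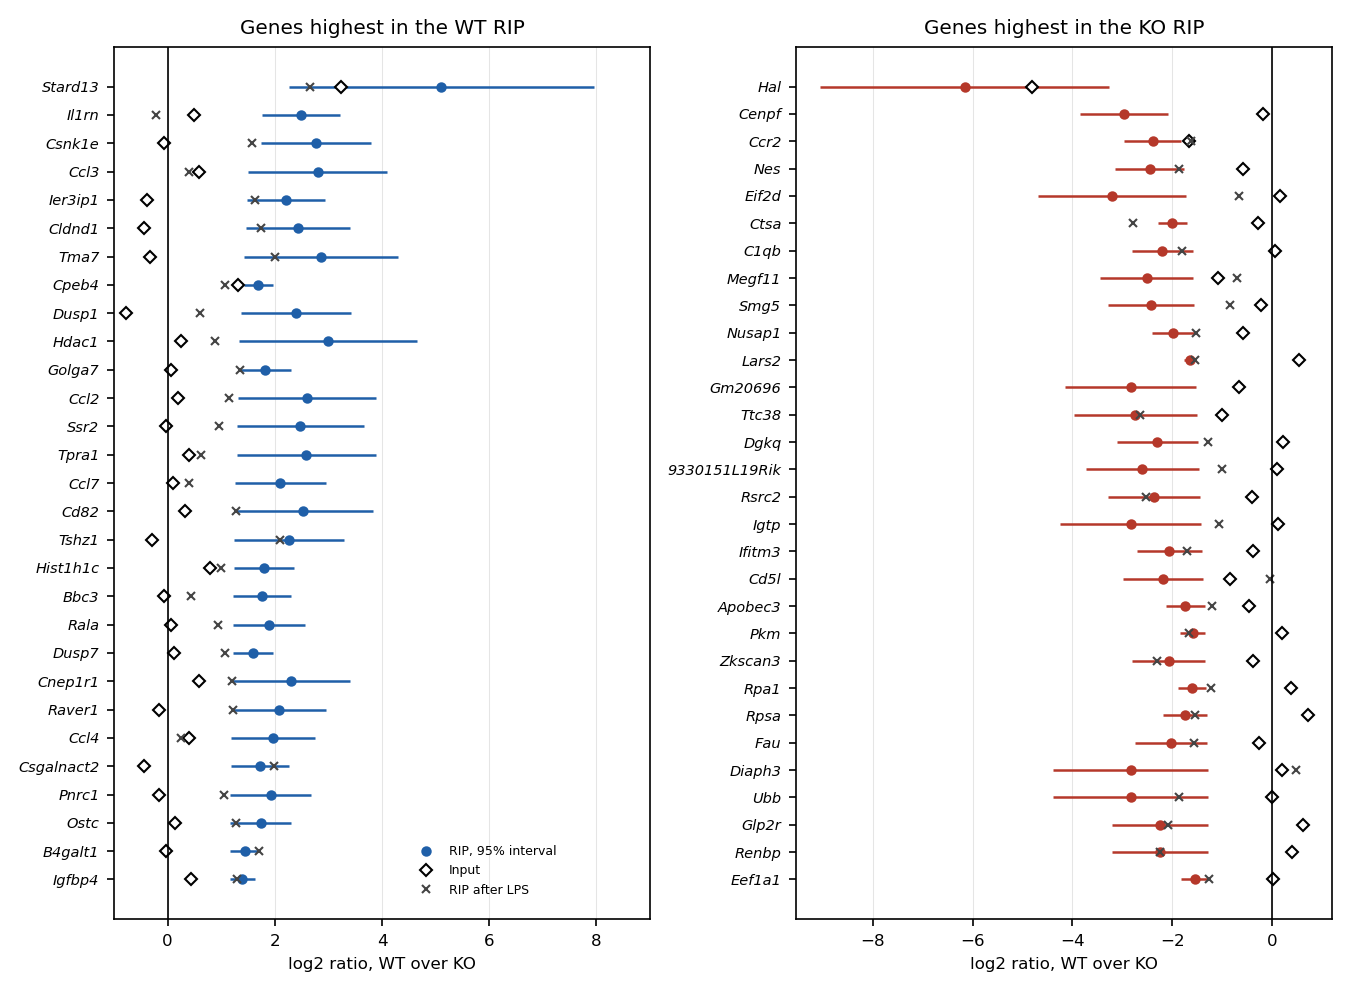
WT over KO log2 ratios (x axis) of 29 of the 30 top genes (left panel, blue) and the 30 bottom genes (right panel, red), with 95% counting intervals of the untreated RIPs (bars), the Input ratio of the same region (open diamonds) and the ratio of the RIPs after LPS (crosses, absent where both libraries had 3 or fewer reads). Input ratios lie between -1 and 1 except in Stard13, Cpeb4, Hal, Ccr2 and Megf11, and among the top genes only the cross of Il1rn lies below 0.

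The LPS RIPs, made from cells of the same numbers after 9 h, give a second reading of these genes in other libraries. Of the 30 top genes, 29 had an LPS ratio over 0 and 20 a ratio over 1, with a median of 1.18, where 9.73% of all genes were over 1. The exception was Il1rn, with 4014 reads in the WT RIP and 1630 in the KO RIP after LPS and a ratio of -0.22. Of 27 bottom genes with over 3 reads in an LPS RIP, 26 were under 0 and 22 under -1, with a median of -1.55, where 16.6% of all genes were under -1. The exception was Diaph3, with 7 and 1 reads. Of the top chemokines, Ccl3, Ccl4 and Ccl7 had LPS ratios of 0.40, 0.25 and 0.39, whereas Ccl2, with 292 and 45 reads, had 1.16. The LPS libraries carry the same numbers, 76 and 73, as the untreated ones.

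RIP over Input sets each RIP beside the Input of its own genotype. Both are scaled to their 3′-UTR reads, which took 27.3% of the KO RIP but 46.4% of the KO Input. On library totals the KO values would therefore be lower, so they do not show in which library the difference lay. The top genes had a median log2 ratio of RIP over Input of 1.16 in the WT and -0.74 in the KO. The bottom genes had -0.69 in the WT and 1.44 in the KO. Over all genes these medians were 0.14 and 0.12. Relative to the 3′-UTR reads, the bottom mRNAs were, by their medians, below their Input in the WT RIP and above it in the KO RIP. These ratios share the RIP libraries that chose the sets, so they are a description.

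Gene lists were read next. They are described by counts past 2-fold and by their median, beside the median of -0.096 for all genes and the 9.57% and 14.3% of all genes past 2-fold. The difference between a list's median and that of all genes does not depend on the scaling of the libraries, whereas the counts do.

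Cytosolic ribosomal proteins had the lowest median of the lists, at -1.06, and their short 3′-UTRs had a median length of 120 bases. Of 76 listed genes, 51 were measured, with 29 under -1 and 1 over 1. Rpl41 had 252 reads in the WT RIP and 183 in the KO RIP and a ratio of -1.37 (-1.65 to -1.10), and Rps9 had 167 and 114 and a ratio of -1.29. Rpl22, by contrast, had 174 and 48 and a ratio of 0.00 (-0.45 to 0.46), and it carries a predicted CPE. The member over 1, Rpl34, had 17 reads in the WT RIP and none in the KO RIP. In the Inputs the list had a median of 0.32, opposite to the RIPs. In the KO the median RIP over Input was 1.50, and in the WT it was 0.44.

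Mitochondrial lists lay low too. Subunits of oxidative phosphorylation, the respiratory chain and ATP synthase, had a median of -1.04, with 18 of 35 measured genes under -1 and none over 1. Atp5a1 had 72 and 47 RIP reads and a ratio of -1.23 (-1.75 to -0.70), Cox6a1 had -1.51 (-2.29 to -0.74) and Atp5g3 had -1.56 (-2.22 to -0.89). The succinate dehydrogenase subunits Sdhc and Sdhd, with ratios of -0.10 and 0.43, were its members with the highest and the third most reads. Mitochondrial ribosomal proteins had a median of -0.63 and 13 of 47 genes under -1, and aminoacyl-tRNA synthetases had -0.57 and 4 of 11. Their median Input ratios were 0.28 and 0.52. In the LPS RIPs the medians were -1.42 for oxidative phosphorylation and -1.12 for aminoacyl-tRNA synthetases. Mitochondrial ribosomal proteins did not lie low there, at 0.023 against -0.028 for all genes. In the untreated RIPs their distance of -0.535 from the median of all genes shrank to -0.247 with 50 reads in the pair.

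Glycolysis had a median of -0.96, with 8 of 16 genes under -1 and 2 over 1. Besides Pkm, Ldha had 214 and 155 RIP reads and a ratio of -1.37 (-1.67 to -1.07), Tpi1 had -1.27, Gpi1 -1.40 and Eno1 -2.08. The 2 genes over 1 act at the entry of the pathway. They were Slc2a1, the glucose transporter, with 164 and 17 RIP reads and a ratio of 1.36 (0.66 to 2.07), and the hexokinase Hk2, with 236 and 32 and a ratio of 1.01 (0.49 to 1.54). Pgam1 lay between these groups at -0.48.

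Interferon-stimulated genes had a median of -0.86, with 11 of 26 under -1 and none over 1. The oligoadenylate synthetase genes Oas1a, Oas1g, Oas2, Oas3 and Oasl2 had ratios from -1.61 to -1.35, with Oas2 at -1.61 (-2.25 to -0.97) from 41 and 35 reads. Bst2, which tethers virus particles, had 134 and 78 reads and a ratio of -1.06. Rsad2 was at 0.25 (-0.12 to 0.62) and Ifit2 at -0.17, so that the list was not uniform. The list's Input median was -0.20. Genes of antigen presentation by the major histocompatibility complex (MHC) had a median of -0.70, but none of 11 passed 2-fold, with H2-D1 at -0.76 (-0.99 to -0.52) and Tap1 at 0.91 (0.26 to 1.55).

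Lysosomal genes and macrophage markers, which are abundant in these cells, also lay low. The list of V-ATPase and lysosome genes had a median of -0.50, with 6 of 45 under -1 and 3 over 1. The share under -1 was not above the 14.3% of all genes, so the list lay low by its median only. Relative to the median of all genes it lay at -0.40, and from -0.62 to -0.18 across the settings. Psap had 1557 and 1023 RIP reads and a ratio of -1.23 (-1.34 to -1.11), Ctsd had 1420 and 886 and a ratio of -1.15, and Npc2 and Laptm5 had -1.04 and -1.02. The cholesterol transporter gene Npc1 went the other way, with 185 and 13 reads and a ratio of 1.90 (1.12 to 2.68), and so did Ctso, with 98 and 8 reads and 1.63 (0.64 to 2.61). Of 10 macrophage markers 4 were under -1. Lyz2, lysozyme, had 2431 and 1587 RIP reads and a ratio of -1.22 (-1.31 to -1.13), against an Input ratio of 0.67. Cd68, Fcgr1 and Adgre1 had ratios of -1.25, -1.38 and -1.27, and Adgre1 alone of these had a negative Input ratio, at -0.76. Proteasome subunits had a median of -0.65, with 7 of 27 under -1. Among actin genes, with a median of -0.27, Actb had 1880 and 1321 reads and a ratio of -1.32 (-1.43 to -1.22), and it has pseudogenes.

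At the other end, alpha-arrestins, adaptors for the sorting and degradation of membrane proteins, had a median of 1.26 over only 5 genes. This was 1.35 above the median of all genes, but 0.40 above it once the Input ratio was subtracted. Txnip had 1403 and 164 RIP reads and a ratio of 1.26 (1.02 to 1.49), Arrdc3 had 271 and 27 and 1.45 (0.89 to 2.01), and Arrdc4 had 93 and 8 and 1.55 (0.57 to 2.54). All 3 have predicted CPEs, while Arrdc1 and Arrdc2, at 0.17 and -1.03, have none. Arrdc4 also had an Input ratio of 1.32 from 13 and 7 reads.

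Chemokines had a median of 0.75, with 4 of 10 measured genes over 1 and none under -1. The 4 were Ccl2, Ccl3, Ccl4 and Ccl7, described above. The chemokine with the most reads, Ccl9, had 1631 and 417 and a ratio of 0.13 (-0.02 to 0.29), and Cxcl16 and Ccl6 had 0.19 and 0.22. The measured chemokines thus comprised members that differed widely between the RIPs and members that did not differ beyond counting error. Among chemokine receptors, Cxcr4 had 454 and 58 RIP reads and a ratio of 1.11 (0.72 to 1.51) and Ccr2 was at -2.39.

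Negative regulators of LPS signalling had a median of 0.39, with 9 of 31 over 1 and 4 under -1. Those over 1 were the inhibitor of NF-κB Nfkbia, with 502 and 60 RIP reads and a ratio of 1.21 (0.83 to 1.59), its relative Bcl3 (1.87, 0.83 to 2.91), Il1rn, the MAP kinase phosphatases Dusp1, Dusp6 and Dusp7, and the suppressors of cytokine signalling Socs1, Socs3 and Socs5. Dusp6 had 177 and 16 reads and a ratio of 1.56 (0.84 to 2.27). Socs3 had 42 and 3 reads, and Socs1 had 21 and 2, with an interval from -0.70 to 2.78. Those under -1 were the tyrosine phosphatase Ptpn6 (-1.35), Tnfaip8l2 (-1.12), Nfkbie (-1.20) and Dusp16 (-1.07). In the LPS RIPs the list had a median of 0.38, but only 2 genes were over 1 and 6 were under -1. Of all genes, 9.73% and 16.6% were so there. The list of Toll-like receptors and NF-κB, which holds the activating arm, had a median of -0.12, with Tirap (1.97) and Myd88 (1.09) over 1 and 5 genes under -1, among them Irak4 at -1.51 (-2.23 to -0.79).

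Immediate-early and growth-response transcription factors had a median of 0.59, which was 0.35 with Klf4, unread in the KO RIP, set to its bound. Its distance of 0.69 from the median of all genes was 0.38 with the Input ratio subtracted. Of 25 measured genes 7 were over 1 and none under -1. Jund had 609 and 71 RIP reads and a ratio of 1.25 (0.90 to 1.60), Klf2 had 135 and 11 and 1.67 (0.82 to 2.52), Klf7 had 1.21, and Fos, Mafk and Myc had 1.02, 1.01 and 1.81. In the list of IRF, STAT and JAK genes, with a median of 0.22, Irf8 and Jak2 were over 1, and Irf2 and Irf5 had ratios of 0.93 and 0.97. Cytokines and growth factors had a median of 0.56, which was 0.33 with Csf1 set to its bound. The list lay 0.66 above the median of all genes, but 0.32 above it with 5 reads added and 0.18 with the Input ratio subtracted. Of its 16 genes Csf1 was over 1, with 12 reads in the WT RIP and none in the KO RIP, and Tgfb1 and Vegfb were under -1. Igf1 had 3756 and 662 reads, a ratio of 0.67 (0.55 to 0.79) and an Input ratio of -0.06, so it differed beyond counting error without reaching 2-fold.

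Factors of the poly(A) tail and of mRNA decay, the machinery that CPEB proteins work with, had a median of 0.43, with 7 of 31 over 1 and none under -1. The deadenylase subunit gene Cnot7 had 242 and 19 RIP reads and a ratio of 1.77 (1.11 to 2.43), with an Input ratio of -0.62. Btg2, which recruits the deadenylase, had 804 and 99 and 1.18 (0.88 to 1.48), the poly(A) polymerase Papola had 412 and 54 and 1.08 (0.67 to 1.48), and Pan3 had 425 and 58 and 1.02 (0.63 to 1.41). Pabpc1, the poly(A)-binding protein, was at 0.15 and Pum2 at 0.72. The list of proteins that bind CPEs or AU-rich elements had a median of 0.36 and Cpeb4 as its only member over 1. Zfp36l1 had 1584 and 283 reads and a ratio of 0.65 (0.47 to 0.83), and 12 of the 14 genes of the list had a predicted CPE, against 39.8% of all genes. The regions of the list were also longer, with a median of 2972 bases against 1321, so these shares were not compared at like length.

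Lists of kinases, the secretory pathway and chromatin lay above the median of all genes as well. Their medians were 0.31 for kinases and phosphatases, 0.29 for ER chaperones, 0.09 for ER to Golgi transport and 0.25 for chromatin. Of the 26 genes of protein kinase A, casein kinases and the phosphatases PP1 and PP2A, 4 were over 1 and 3 under -1. Besides Csnk1e these were the catalytic subunit Prkaca (231 and 25 reads, 1.32, 0.74 to 1.91), the regulatory subunit Prkar2b (111 and 7 reads, 1.97, 0.94 to 3.01) and Csnk1g2 (1.26). Of 25 genes of ER chaperones and the unfolded protein response, 6 were over 1 and 2 under -1, and the latter were the transcription factors Xbp1 (-1.29, -1.82 to -0.76) and Ddit3 (-2.32). Hyou1, an ER chaperone, had 223 and 24 reads and a ratio of 1.33 (0.73 to 1.93). In ER to Golgi transport 4 of 25 genes were over 1 and 2 under -1. Its distance of 0.18 from the median of all genes ran from 0.07 to 0.51 across the settings. In this list Sec61a1, the channel of the translocon, had 420 and 44 reads and 1.39 (0.95 to 1.84). Of 73 chromatin regulators 9 were over 1 and 6 under -1, with Brd3 (373 and 37 reads) at 1.47 (0.98 to 1.95) and Dnmt3a at -0.85 (-1.03 to -0.67).

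**Figure D3:**
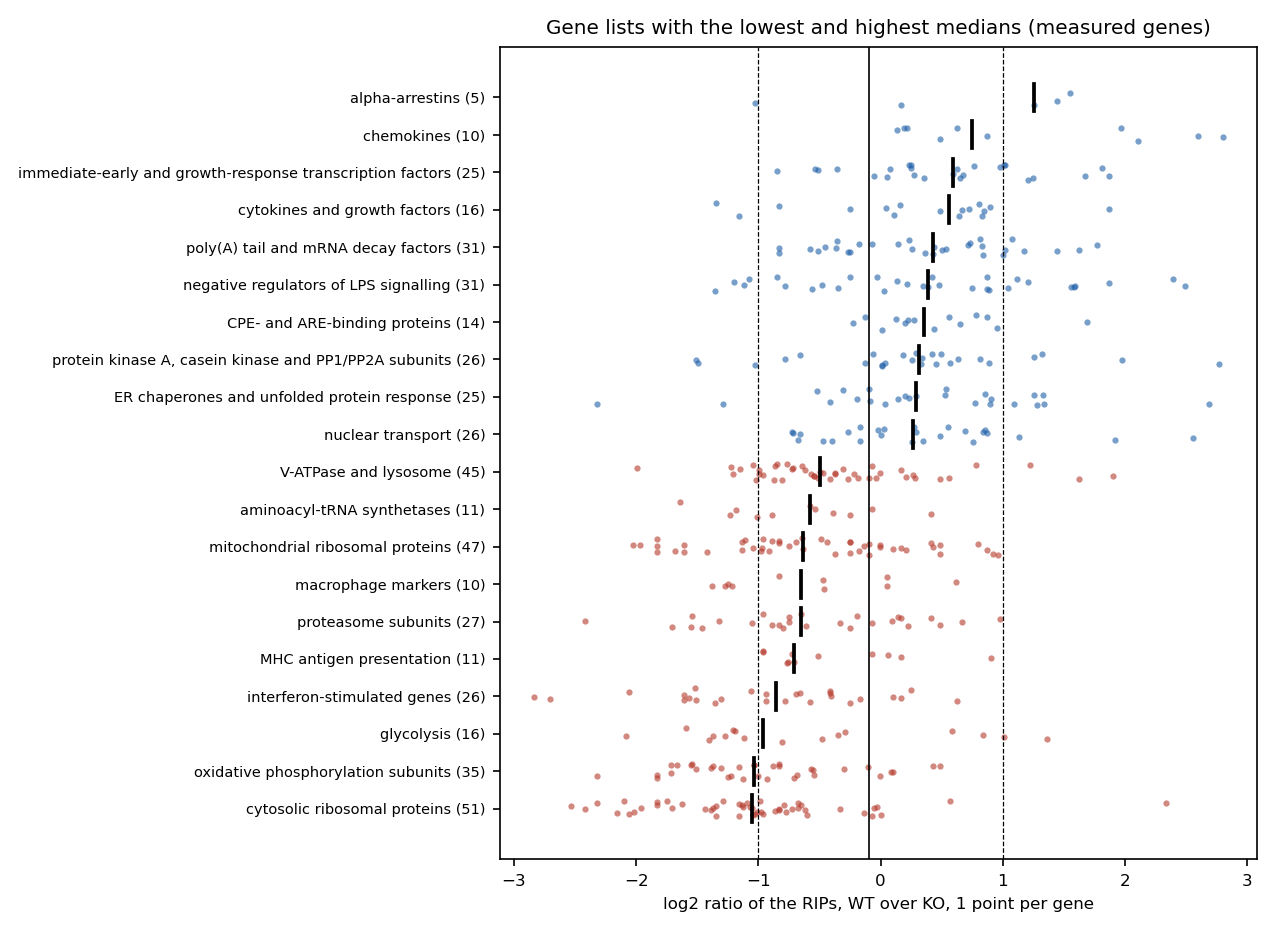
WT over KO log2 ratios of the untreated RIPs (x axis) for the 10 gene lists with the lowest (red) and the 10 with the highest (blue) medians among lists with 5 or more measured genes (zinc finger and uncharacterised genes left out). Each point is a gene, thick bars are list medians, the solid line is the median of all genes and dashed lines mark 2-fold, and every list holds genes on both sides of the solid line except chemokines, which all lie to its right.

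RNA-binding proteins did not all lie with the decay factors. The list of heterogeneous nuclear ribonucleoproteins (hnRNPs) and poly(C)-binding proteins had a median of -0.09 and the SR splicing factors had -0.20. The hnRNP list lay 0.006 above the median of all genes and fell below it, at -0.17, only with 50 reads in the pair. SR factors lay 0.1 below it, and above it with 10 reads in each Input, 5 reads added or the Input ratio subtracted. Relative to the 3′-UTR reads, both lists were above their Input in the RIPs of both genotypes. Their median log2 ratios were 1.72 (WT) and 0.86 (KO) for hnRNPs and 1.54 and 1.37 for SR factors. In SR factors 9 of 12 genes, and in hnRNPs 17 of 27, had a predicted CPE. Core spliceosome proteins had a median of 0.15, which also changed sides in 3 settings, with 8 of 40 over 1, among them Sf3a1 (1.61, 0.49 to 2.72) and Lsm6 (1.34, 0.34 to 2.33). Srsf1 was at 0.21 (-0.02 to 0.44), and Hnrnpa2b1, with 439 and 268 RIP reads, was at -1.12 (-1.34 to -0.90).

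**Figure D4:**
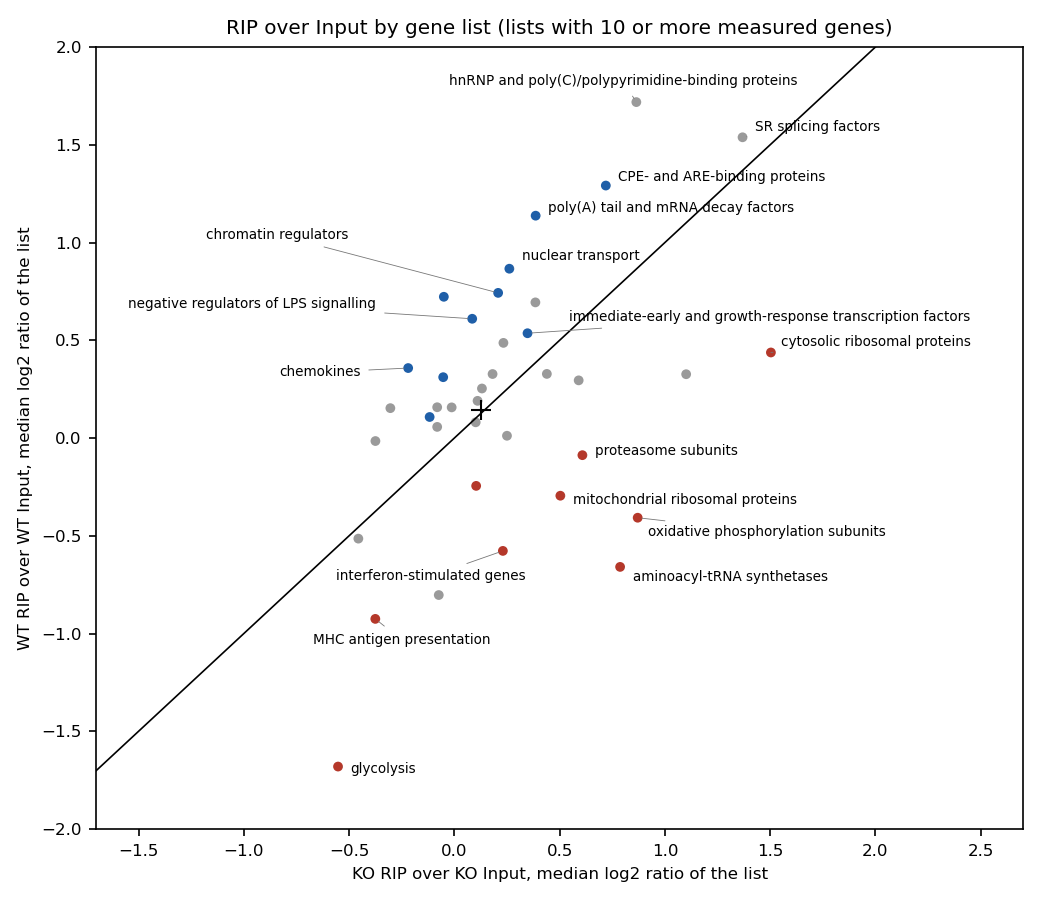
Median log2 ratio of RIP over Input in the KO (x axis) and in the WT (y axis) for gene lists with 10 or more measured genes (large lists defined by symbol alone left out), with the line of equal values and a cross for all genes. Points are red where the median WT over KO ratio was under -0.5 and blue where it was over 0.25, and cytosolic ribosomal proteins (0.44 in the WT, 1.50 in the KO) lie farthest to the right, whereas hnRNPs and SR factors are high in both.

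Other lists lay closer to the median of all genes. Translation initiation factors had a median of -0.33, with 8 of 45 under -1, among them Eif4h, a cofactor of the helicase eIF4A, with 509 and 302 RIP reads and a ratio of -1.08 (-1.29 to -0.88). Cytosolic chaperones had a median of -0.36, with 5 of 18 under -1, which were the heat shock cognate protein Hspa8 (-1.50, -2.06 to -0.95) and the subunits Tcp1, Cct3, Cct4 and Cct7 of the chaperonin that folds actin and tubulin. Ubiquitin-specific proteases had 9 of 38 under -1 and 2 over 1, whereas ubiquitin-conjugating enzymes had 1 of 29 and 3. Histones had 4 of 10 under -1, and Hist1h1c was the single gene over 1. The medians of kinases of the MAP kinase cascade (-0.04), cell cycle genes (-0.12) and the BCL-2 family (-0.05) lay within 0.1 of that of all genes. In the BCL-2 family the pro-apoptotic Bcl2l11 had 1175 and 160 RIP reads and a ratio of 1.04 (0.80 to 1.27), while the survival gene Mcl1 had 1972 and 870 and a ratio of -0.65 (-0.77 to -0.54). Rab GTPases (0.16), circadian clock genes (0.18) and nuclear transport (0.27) lay above it. Large lists defined by symbol were mixed, with 20 over 1 and 14 under -1 among 149 solute carriers, 16 and 13 among 121 Tmem genes, 9 and 15 among 122 ubiquitin ligase genes, 8 and 20 among 137 Zfp genes, and 23 and 48 among 253 uncharacterised Gm and Rik genes. The iron exporter Slc40a1, ferroportin, had 289 and 33 RIP reads and a ratio of 1.26 (0.75 to 1.77), with an Input ratio of 0.68.

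Families were also formed from the symbols alone, as the letters before the first digit, and 133 families had 8 or more measured genes. The lowest medians were those of Rpl (-1.04, 34 genes), Rps (-0.83, 29 genes, of which 8 are S6 kinases or other proteins and not ribosomal), Anxa (-0.82), Fkbp (-0.77), Psmd (-0.75), Ugt (-0.71), Timm (-0.70) and Mrps (-0.70). Anxa genes encode annexins, calcium-dependent membrane-binding proteins, Fkbp genes peptidyl-prolyl isomerases, Psmd genes subunits of the proteasome lid and base, and Timm genes the import machinery of the mitochondrial inner membrane. The Ugt1a genes share their last exon, and their 9 symbols stand on 4 distinct regions that overlap, so this family is close to a single measurement. Of 12 Psmd genes 2 were under -1, and of 9 Anxa genes 2 were. In the LPS RIPs the medians of these families ran from -1.15 in Rpl to -0.021 in Mrps. Mrps and Ugt (-0.045) lay there close to the median of all genes, -0.028.

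The highest medians were those of Taf (0.78, 16 genes), Lsm (0.74), Zcchc (0.71), Hdac (0.71), Nup (0.66), Csnk (0.65), Tm (0.61) and Atxn (0.56). Taf genes mostly encode subunits of the general transcription factor TFIID, and 6 of 16 were over 1 and none under -1, with Taf2 at 1.72, Taf5l at 1.52 and Taf1 at 1.43, while the intervals of the other 3 included 0. Taf5l had an Input ratio of 1.69, and its RIP ratio less the Input ratio was -0.17. Of 12 Zcchc genes, which share a CCHC zinc finger, 5 were over 1, but 4 of these had an interval that included 0, the exception being Zcchc10 with 53 and 4 RIP reads. Of 8 histone deacetylases 3 were over 1, of which Hdac2, with 28 and 2 reads, had an interval that included 0. Hdac5 was at -2.42 (-3.91 to -0.93), from only 5 and 8 reads. Lsm genes (RNA-binding proteins of the Sm fold) had 3 of 11 over 1, with Lsm1 (14 and 1 reads) not beyond counting error. The 2 of 10 nucleoporins (Nup) over 1 were Nup54, with 20 and 0 reads, and Nup188, with 26 and 1, and neither differed beyond counting error. Genes with so few KO reads passed the minimum of 10 reads through the WT RIP. All regions with exactly 10 reads in the pair had a median of -0.83, on the KO side. Which way genes with few reads move the family medians was not tested. Median Input ratios of these families ran from -0.59 in Hdac to 0.19 in Lsm. Their medians in the LPS RIPs were above that of all genes (-0.028), at 0.61 for Taf and 0.75 for Nup, and smallest for Hdac at 0.082.

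Across all genes, the ratio was set beside what the rule did not use, the sequence of the region. The authors' prediction calls a CPE and its likely effect from the arrangement of motifs. Genes with a ratio under -1 had a predicted CPE in 14.3% of cases (95% Wilson interval 12.4 to 16.4), and the share was 26.1% from -1 to -0.5, 41.2% from -0.5 to 0, 49.3% from 0 to 0.5 and 58.6% from 0.5 to 1. Over 1 it was 50.6% (47.1 to 54.2), lower than in the bin before it. The pattern was similar among the 4560 genes with 50 or more reads in the pair, with 12.3% under -1, 63.6% from 0.5 to 1 and 55.5% over 1. Within regions of 500 to 1500 bases, where length varies less, the shares were 12.9% (10.2 to 16.2) under -1, 48.2% from 0.5 to 1 and 47.0% (41.8 to 52.4) over 1. The last 2 values differ by less than their intervals.

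The classes of prediction and the motifs differed between the ends in the same direction. Predictions of strong early activation were held by 2.60% of genes under -1 and by 12.8% of genes over 1, and predictions of repression alone by 8.39% and 23.1%. CPE motifs had a density of 0.71 per kilobase under -1 and 1.75 over 1, and the variant with a G, TTTTGT, had 0.78 and 1.51. The AU-rich pentamer ATTTA had 1.28 and 2.09, the Pumilio element TGTANATA had 0.15 and 0.32, and the polyadenylation hexamers had 1.64 and 1.79. Only the mRNA strand was searched. GC content went the other way, with medians of 48.8% under -1 and 42.7% over 1, so that AT-rich motifs and base composition moved together and their parts were not tested. Across genes the ratio had a Spearman correlation of 0.32 with CPE density, 0.23 with ATTTA density, -0.26 with GC content and 0.15 with length (n = 8086). Genes are not independent replicates, and neighbouring motifs share letters.

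**Figure D5:**
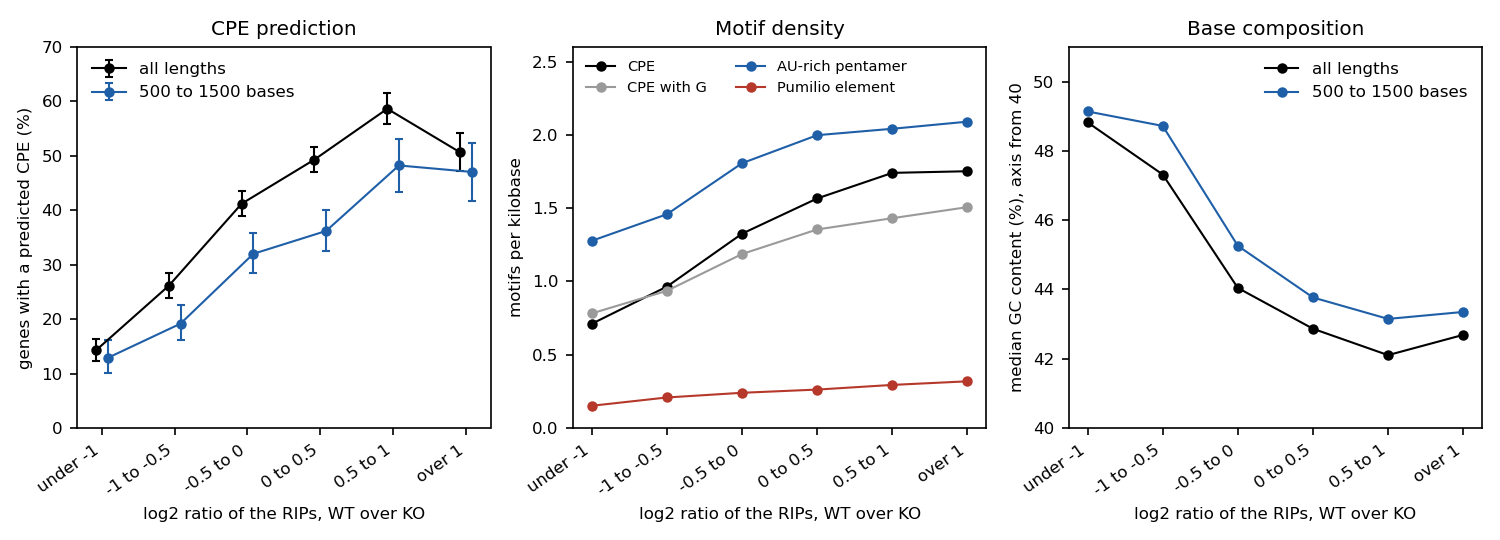
Left, genes with a predicted CPE (%) with 95% Wilson intervals, for all regions (black) and regions of 500 to 1500 bases (blue). Middle, motifs per kilobase. Right, median GC content (%), on an axis that starts at 40. All are plotted by bins of the RIP log2 ratio (WT over KO), and the share with a CPE goes from 14.3% under -1 to 58.6% between 0.5 and 1.

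The same features in the 30 top and 30 bottom genes differed less than across the bins. A predicted CPE was present in 14 top and 9 bottom genes, or 46.7% and 30%, and CPE motifs were present in 20 and 16. Top genes without a predicted CPE included Ccl2, Ccl4, Ssr2, Cd82, Hdac1, Dusp7 and Igfbp4, and bottom genes with one included Ctsa, Ccr2, Rpa1 and Eef1a1. The median length of the regions was 1004 bases in the top and 1220 in the bottom genes, and the median GC content was 42.6% and 47.4%. Expression per length in the WT Input had a median of 15.0 CPM per kilobase in genes over 1 and 24.1 in genes under -1, against 22.1 for all genes. Among genes with 50 or more reads in the pair these values were 26.4 and 86.7. The minimum counts the reads of both RIPs, and the KO library was the smaller. A gene under -1 therefore had to be more abundant to pass it than a gene over 1. The minimum of 10 reads acts in the same way, so no conclusion on abundance is drawn from these values.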

How the data were processed

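RIP and Input libraries of untreated WT and KO BMDMs, 1 of each per genotype, were compared, and the LPS RIPs were set beside them. Per the study's methods the authors crosslinked the cells with formaldehyde, sonicated them, precipitated with an anti-CPEB4 antibody, aligned reads to mm10 with Bowtie2 (version 2.2.2 in the submitters' processing notes) in local mode, discarded duplicates (sambamba), and tallied reads falling in Ensembl 3′-UTRs. Whether strand was used is not given in the sources used here. The deposited counts per region pool the 2 lanes of a library. The authors' deposited RPKM values divide the counts by length and library total, and served here only to recover those totals (3407430 and 1714630 for the WT and KO RIP). Deposited fold changes, p-values and peak scores of the authors' own comparisons were not used. Rows with no symbol, 0.929% to 1.04% of the 3′-UTR reads of the 4 untreated libraries, were left out.

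Ratios were computed with 1 read added. Input and LPS ratios were left blank at 3 or fewer reads in each of the libraries compared. The ratio and its interval were checked on simulated data. Sequences and motifs were read from GRCm38.p6, the build of the files, and overlaps with other genes from GENCODE M21. The named genes are the 30 highest lower ends and 30 lowest upper ends of the interval, Cpeb4, in each of 52 lists up to 4 members with the most reads and those past 2-fold, and the 8 highest and 8 lowest symbol families. Members and lists were chosen with earlier results of these data known. Alternatives were library totals, TMM (edgeR 4.0.16), median of ratios (DESeq2 1.42.0), 5 reads added, other minimums, the region with the most Input reads, and subtraction of the Input ratio. Some genes that meet these rules are counted in the totals but not reported by name here.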

Additional observations from a re-analysis of the deposited data

How the results depend on the processing

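The counts past 2-fold depended on the processing. In the WT direction the count of 774 genes became 3115 on library totals, 1248 with TMM scaling, 1250 with median-of-ratios scaling, 242 with 5 reads added, 467 with 50 reads in the pair, 465 with 10 reads in each Input and 1178 with the Input ratio subtracted. In the KO direction the count of 1156 became 144 on library totals, 758 with TMM and with median-of-ratios scaling, 332 with 50 reads in the pair and 3113 with 1 read in the pair. These scalings moved the median of all genes by 0.84, 0.24 and 0.25. The other counts stayed within 1.5 times. None of the ratios of the 30 top genes, Cpeb4 among them, and the 30 bottom genes changed sign under any of the 6 alternatives tried for them. These genes were chosen for intervals far from 0, so the scalings and the 5 added reads could hardly have changed a sign. The subtraction of the Input ratio, which brings in other libraries, could have. Other named genes were not followed in this way, and on library totals negative ratios closer to 0 than 0.84, such as those of Mcl1 (-0.65) and H2-D1 (-0.76), become positive. With 5 reads added, the 242 genes over 2-fold were all among the 774, which had to be so because added reads can only lower such ratios. With the Input ratio subtracted 549 of the 774 and 868 of the 1156 stayed past it. Relative to the median of all genes, the medians of cytosolic ribosomal proteins (-1.48 to -0.82), oxidative phosphorylation (-1.37 to -0.76), glycolysis (-1.07 to -0.65), interferon-stimulated genes (-1.09 to -0.56), chemokines (0.58 to 0.84), decay factors (0.52 to 0.76) and negative regulators of LPS signalling (0.31 to 0.83) kept their sign, whereas those of SR factors (-0.27 to 0.37), core spliceosome proteins (-0.12 to 0.24), actin genes (-0.35 to 0.11) and hnRNPs (-0.17 to 0.60) did not. The KO RIP is the shallowest library, and a gene unread in it is bounded only at 6.41 CPM. No paired analysis was possible because each genotype has 1 library per assay.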
